A study of Rattus norvegicus with 6 samples.

Results

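A set of 10 genes of the integrated stress response and the unfolded protein response were followed in spinal cord RNA-seq of SNI-NP and sham rats. They are *Atf4*, *Ddit3*, *Trib3*, *Chac1*, *Asns*, *Psat1*, *Sesn2*, *Xbp1*, *Herpud1* and *Sdf2l1*, and each was found by its symbol, once, among the 22050 genes of the deposited table. SNI-NP rats had spared nerve injury, a lesion of the sciatic nerve that leaves the sural branch intact and is used as a model of neuropathic pain, and sham rats had the surgery without the lesion. All animals were male Sprague-Dawley rats aged 8 to 10 weeks, with no other allele or agent, and 3 libraries were analysed from each group. The interval after surgery, the spinal segment, the side, and whether a library came from a single rat or from pooled rats are not given in the sources used here, so the p-values measure only the spread between these libraries, which may in part be technical. The libraries held 16670760 to 18151156 estimated counts, and the members were counted between 7 and 4812 times per library.

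When a cell is short of amino acids or haem, is infected, or holds unfolded protein in its endoplasmic reticulum (ER), kinases phosphorylate the initiation factor eIF2, bulk translation falls, and the transcription factor ATF4 is translated instead. ATF4 switches on genes of amino acid synthesis and transport, and it shares with unfolded protein signalling the factor CHOP (the product of *Ddit3*) and the pseudokinase TRIB3. In a parallel arm, the ER sensor IRE1 splices *Xbp1* mRNA and ATF6 is cut free from its membrane, and both resulting factors raise chaperones and the proteins that remove misfolded clients. A count per gene sees mRNA abundance alone, so neither the translation of ATF4 nor the splicing of *Xbp1* was measured.

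The sequence around the start sites of these genes was searched for known response elements, and the stretches that carry a match are shown. In the RefSeq promoters of build GRCr8, from 250 bases before to 50 after the start, all 10 genes were matched. Both strands were searched for the C/EBP-ATF response element TGATGNAAN, to which ATF4 binds with a C/EBP partner, and for the ER stress response element (CCAAT, then 9 bases of any kind, then CCACG), to which ATF6 binds with NF-Y. The other motifs were element II (ATTGG, 1 base, CCACG), the unfolded protein response element TGACGTGG and the cyclic AMP response element TGACGTCA. Capitals mark the matches, the strand is that of the gene, and C/EBP-ATF matches lie on the opposite strand.
*Trib3*, chr3:161275527-161275575, minus strand: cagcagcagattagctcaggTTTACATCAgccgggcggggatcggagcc
*Chac1*, chr3:126795943-126795991, plus strand: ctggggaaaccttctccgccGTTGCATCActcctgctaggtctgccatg
*Herpud1*, chr19:10614801-10614912, minus strand: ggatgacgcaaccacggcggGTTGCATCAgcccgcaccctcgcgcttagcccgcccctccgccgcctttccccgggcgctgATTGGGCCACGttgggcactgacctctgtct
*Xbp1*, chr14:84604538-84604596, plus strand: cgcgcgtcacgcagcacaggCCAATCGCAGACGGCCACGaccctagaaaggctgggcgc

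The C/EBP-ATF element was found in 3 of the 10 promoters, starting 22 bases before the start of *Trib3*, 168 before *Chac1* and 185 before *Herpud1*. Of all 33469 promoters of that length, 3.97% held it. The ER stress response element stood 65 bases before the start of *Xbp1* and was held by 0.0657% of all promoters, and element II stood 124 bases before the start of *Herpud1* and was held by 0.0508%. *Herpud1* was the only member that held a match for both arms. The unfolded protein response element (0.595% of all promoters) and the cyclic AMP response element (1.83%) were not in these windows of the 10 genes. A match describes letters and not a bound site. The motifs that start with TGACGT share these bases with each other and not with the rest.

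Per gene length, the 10 mRNAs covered a wide range of levels in the tissue. FPKM, the deposited level per length and depth, had a mean over the 6 libraries of 188.3 for *Atf4*, which stood at the 97.7th percentile of the genes tested. *Psat1* followed with a mean FPKM of 64.1, then *Herpud1* with 44.1, *Xbp1* with 43.7, *Asns* with 23.6, *Ddit3* with 20.9 and *Sdf2l1* with 11.4. *Sesn2* had a mean FPKM of 7.04, *Chac1* of 6.23 and *Trib3*, the lowest, of 0.72, at the 7.12th percentile. The order held in 6 of 6 libraries for most neighbours. It did not hold beyond the spread for *Herpud1* and *Xbp1* (the former was higher in 2 of 6 libraries), *Asns* and *Ddit3* (4 of 6) or *Sesn2* and *Chac1* (4 of 6). *Atf4* mRNA was thus abundant in sham rats as well, and lay between 171.48 and 200.77 FPKM in all libraries.

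**Figure D1:**
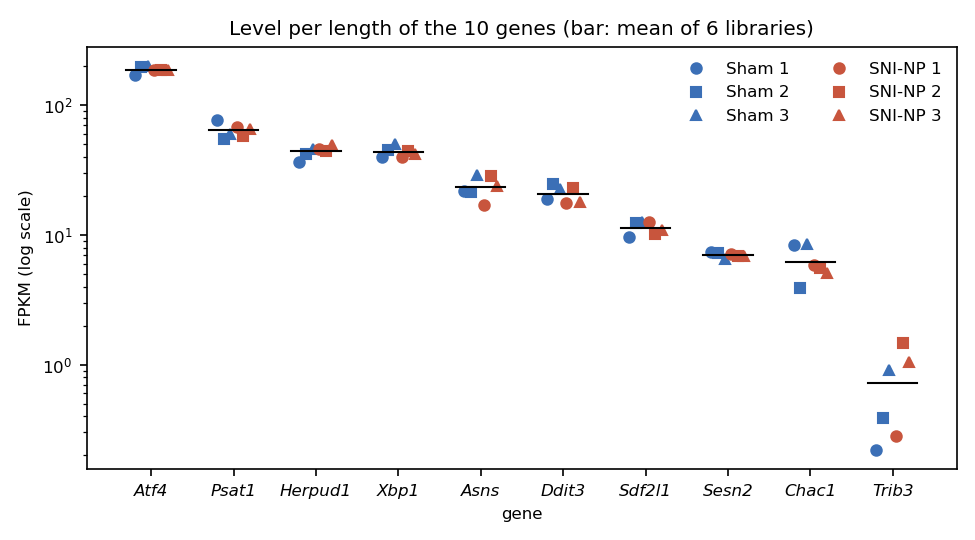
Level per gene length of the 10 genes (FPKM, log axis), with each library as a point, the groups in separate colours and a bar at the mean of the 6 libraries. *Atf4* lies highest at a mean of 188.3 FPKM and *Trib3* lowest at 0.72 FPKM, and the points of both groups are mixed within each gene.

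The comparison of SNI-NP with sham rats asks whether nerve injury came with a different level of these mRNAs in the spinal cord. It gave no call for any of the 10 genes. Counts were tested by edgeR's quasi-likelihood test over 14426 genes, all 10 members included, and levels are given as CPM, each count relative to the TMM-adjusted total of its library. None of the 10 had an adjusted p under 0.05, where 0% of all genes did. DESeq2 also called 0 of the 10, and in all it called 192 of the 17452 genes that it tested. At an unadjusted p under 0.05, 0 members were higher in SNI-NP rats, against 4.91% of all genes tested, and 0 were lower, against 5.94%. The groups were without overlap, SNI-NP higher, for 0 members and 10.4% of all genes, and SNI-NP lower for 0 members and 8.15% of all genes. Fold changes on the log2 scale (SNI-NP minus sham) were above 0 for 6 of the 10 genes, between -0.29 and 0.90, with a median of 0.02 against 0.01 over all genes tested.

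The width of the intervals says how large a difference could have been missed. For 8 of the 10 genes the 95% interval of the fold lay within 2-fold in either direction, from 0.709 at the lowest bound to 1.39 at the highest. The intervals of *Trib3* and *Chac1* reached further. For 7 genes the spread between replicates (the biological coefficient of variation) was under the median of all genes tested.

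**Figure D2:**
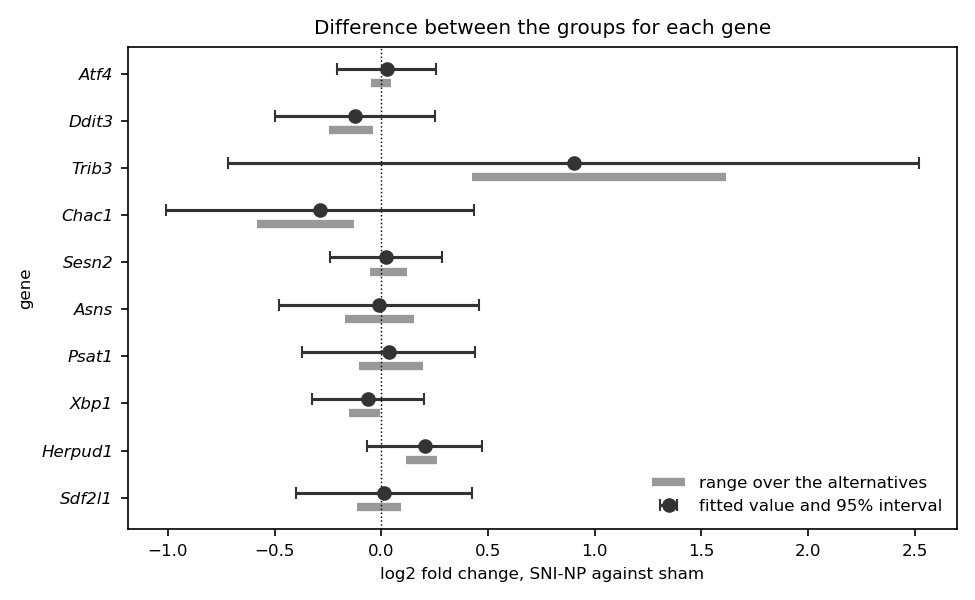
Fitted log2 fold change (SNI-NP minus sham) of each gene with its 95% interval from edgeR's quasi-likelihood fit. Every interval spans 0, and that of *Trib3*, from -0.72 to 2.52, is the widest.

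*Atf4* (ENSRNOG00000017801) encodes the transcription factor on which the eIF2 kinases converge. It was measured at 240.3, 264.4 and 279.9 CPM in the sham libraries and at 272.7, 261.9 and 263.4 CPM in the SNI-NP libraries. The lowest and the highest value were both from sham rats, and the SNI-NP values lay between them. Group means (± SD, n = 3 each) were 261.6 ± 19.97 CPM for sham and 266.0 ± 5.86 CPM for SNI-NP rats, and the log2 fold change was 0.02 (SE 0.10, 95% interval -0.21 to 0.26, edgeR adjusted p = 0.946). Its coefficient of variation, as fitted by edgeR, ranked at the 4.58th percentile of all genes tested. That rank was not compared with genes of like abundance.

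*Ddit3* (ENSRNOG00000006789) encodes CHOP, a factor linked to cell death under prolonged ER stress, which pairs with ATF4 on DNA. Its levels were 16.4, 21.1 and 19.8 CPM in sham and 16.0, 20.4 and 16.2 CPM in SNI-NP libraries. In each group replicate 2 was the highest, and the groups overlapped over most of their range. Its log2 fold change was -0.12 (SE 0.16, 95% interval -0.50 to 0.25, edgeR adjusted p = 0.790). In the RefSeq annotation of build GRCr8 *Ddit3* overlaps 2 protein-coding genes, *LOC134479709* and the methionyl-tRNA synthetase gene *Mars1*. The annotation release used for the counting and its use of strand are not given in the sources used here. How reads in the overlap were counted is therefore not known, and a part of the *Ddit3* reads may belong to a neighbour. *Mars1* itself had a log2 fold change of -0.01.

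*Trib3* (ENSRNOG00000007319) encodes the pseudokinase that binds ATF4 and damps it in a feedback loop. It was the lowest and the most variable of the 10. It had 7, 13 and 30 counts in the sham libraries and 10, 51 and 35 in the SNI-NP libraries, or 0.420, 0.732 and 1.75 CPM and 0.575, 2.83 and 2.03 CPM. The highest library was 6.74 times the lowest, and SNI-NP replicate 1 lay below sham replicates 2 and 3. The log2 fold change of 0.90 had an SE of 0.69, a 95% interval from -0.72 to 2.52 and an edgeR adjusted p of 0.630. That interval runs from a fold of 0.608 to one of 5.74, so these libraries fix the size and direction of a difference only loosely. Fits that left out 1 library ran from 0.43 (SNI-NP replicate 2 removed) to 1.61 (sham replicate 3 removed), with 0.55 when sham replicate 1 was removed, and none had an adjusted p under 0.05 by edgeR.

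*Chac1* (ENSRNOG00000014387) encodes a glutathione-degrading enzyme induced by ATF4 and CHOP. Its sham values were 13.1, 5.91 and 13.3 CPM and its SNI-NP values were 9.66, 8.71 and 8.05 CPM. Sham replicate 2 was the lowest of all libraries and the other sham libraries were the highest, so the SNI-NP values lay inside the sham range. On the log2 scale the fold change was -0.29 (SE 0.31, 95% interval -1.01 to 0.43, edgeR adjusted p = 0.735). Without sham replicate 2 it was -0.58 (SE 0.16, unadjusted p = 0.0101, adjusted p = 0.233 by edgeR), so 1 library decided whether the gene stood below the unadjusted threshold.

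*Asns*, *Psat1* and *Sesn2* are the members that serve amino acid supply and sensing. *Asns* (ENSRNOG00000007546), asparagine synthetase and a textbook ATF4 target, was at 45.1, 42.7 and 59.4 CPM in sham and 36.8, 58.8 and 50.3 CPM in SNI-NP libraries. SNI-NP replicate 1 was the lowest and the rest of the values were interleaved. The groups differed by a log2 fold change of -0.01 (SE 0.20, 95% interval -0.48 to 0.46, edgeR adjusted p = 0.988).

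*Psat1* (ENSRNOG00000013971), the phosphoserine aminotransferase of serine synthesis, had 143.4, 93.1 and 112.2 CPM in sham and 131.5, 103.7 and 121.7 CPM in SNI-NP libraries. In both groups replicate 1 was the highest and replicate 2 the lowest. The log2 fold change was 0.03 (SE 0.17, 95% interval -0.37 to 0.44, edgeR adjusted p = 0.957). *Sesn2* (ENSRNOG00000042785), a leucine sensor that restrains mTORC1, stood at 27.9, 26.1 and 24.4 CPM in sham and 28.0, 25.6 and 26.1 CPM in SNI-NP libraries. A long non-coding RNA gene overlaps it in RefSeq. All 6 values were close together, and the log2 fold change was 0.02 (SE 0.11, 95% interval -0.24 to 0.28, edgeR adjusted p = 0.954).

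*Xbp1*, *Herpud1* and *Sdf2l1* belong to the ER arm. *Xbp1* (ENSRNOG00000010298), which encodes the factor made active by IRE1 splicing, was at 44.7, 49.0 and 55.6 CPM in sham and 46.2, 49.3 and 47.3 CPM in SNI-NP libraries. The sham libraries held both the lowest and the highest value. The log2 fold change of total *Xbp1* mRNA was -0.06 (SE 0.11, 95% interval -0.32 to 0.20, edgeR adjusted p = 0.854).

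*Herpud1* (ENSRNOG00000018796) encodes an ER membrane protein of the machinery that degrades misfolded proteins. It had 67.9, 74.4 and 84.8 CPM in sham and 88.9, 80.6 and 91.9 CPM in SNI-NP libraries, and came nearest of the 10 to a separation of the groups. SNI-NP replicates 1 and 3 were above all sham libraries, but SNI-NP replicate 2 was below sham replicate 3. The means were 75.7 ± 8.49 and 87.1 ± 5.85 CPM (SD, n = 3 each), and the log2 fold change of 0.20 (SE 0.12, 95% interval -0.07 to 0.47) had an unadjusted p of 0.121 and an adjusted p of 0.533 in edgeR. A predicted protein-coding gene overlaps *Herpud1* in RefSeq.

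*Sdf2l1* (ENSRNOG00000001859), an ER-resident partner of the chaperone network, was at 10.2, 12.7 and 13.4 CPM in sham and 14.1, 10.8 and 11.7 CPM in SNI-NP libraries. The groups were interleaved, and the log2 fold change was 0.01 (SE 0.18, 95% interval -0.40 to 0.42, edgeR adjusted p = 0.986).

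**Figure D3:**
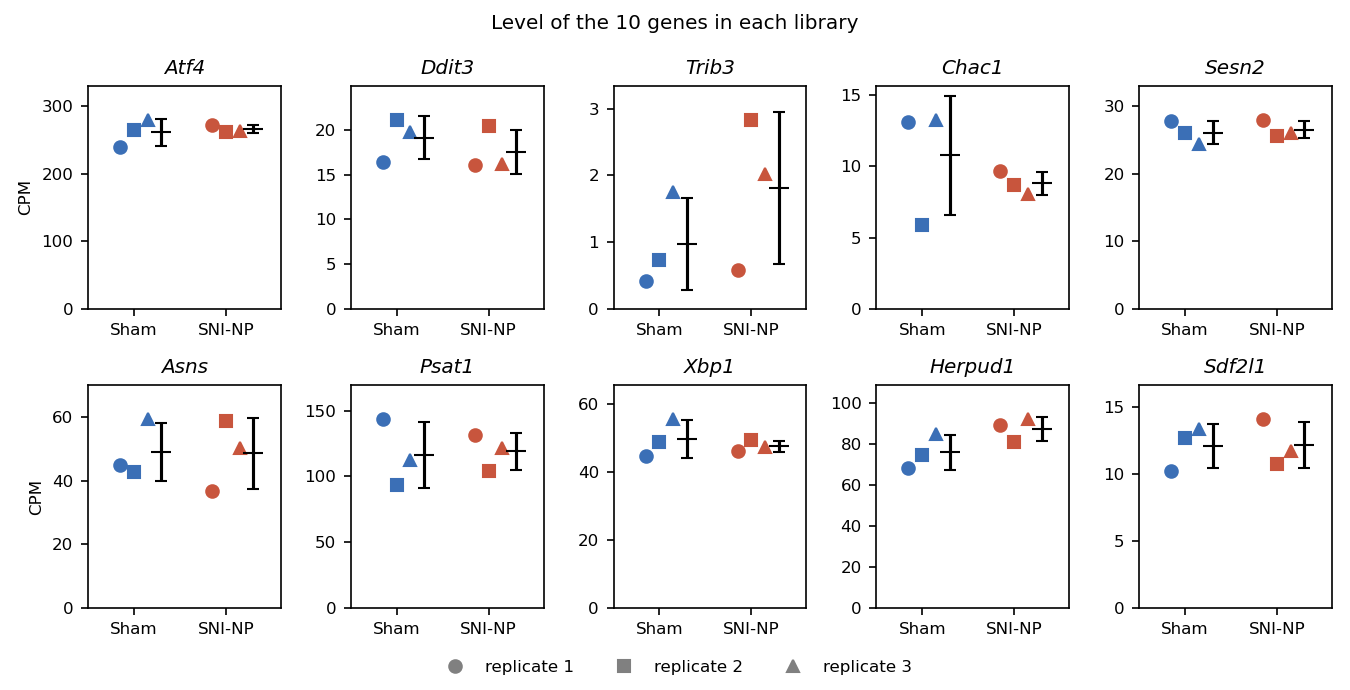
CPM of each of the 10 genes in the 3 sham and 3 SNI-NP libraries, as points with the group mean and SD, each panel on its own axis from 0. The groups overlap in every panel, and *Herpud1*, at 67.9 to 84.8 CPM in sham and 80.6 to 91.9 CPM in SNI-NP libraries, overlaps least.

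The 10 genes did not move as a block between libraries. Their summed level was 590.1 to 664.4 CPM. Sham replicate 3 held the highest value of 4 genes and SNI-NP replicate 1 of 2, whereas sham replicate 1 held the lowest value of 5 genes. *Atf4* was lowest in sham replicate 1 while *Psat1* was highest there. In the deposited annotation, 5 of the 10 (*Atf4*, *Ddit3*, *Trib3*, *Herpud1* and *Sdf2l1*) share the GO term for the response to ER stress. The KEGG pathway of protein processing in the ER is shared by 4 (*Atf4*, *Ddit3*, *Xbp1* and *Herpud1*).

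Closest to *Atf4* over the 6 libraries, by the root mean square difference of log2 CPM deviations, were *Spice1* (0.0197), *Srsf7* (0.0284) and *Acp2* (0.0321), while *Atf4* itself deviated from its mean by 0.0681 on that scale. For *Ddit3* they were *Mrps18c* (0.0255), *Fmc1* (0.0370) and *Ogg1* (0.0402), with an own deviation of 0.169. For *Xbp1* they were *Ggct* (0.0297), *Mydgf* (0.0374) and *LOC100912008* (0.0392), with an own deviation of 0.0992. Likeness over 6 libraries is a description of these libraries.

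The tissue itself was mixed, and its makeup differed between libraries. The label is spinal cord, and neuronal, astrocyte and oligodendrocyte markers were present, but all 13 markers of sensory ganglion neurons were detected as well. The ganglion markers summed to 842.5, 1501.7 and 1739.1 CPM in sham and 268.8, 2371.9 and 1686.0 CPM in SNI-NP libraries, with SNI-NP replicate 1 apart from the rest, and 1 of 13 (*Scn9a*) was lower at an unadjusted p under 0.05. The sum of 8 neuronal markers was 413.4 to 864.0 CPM in sham and 420.7 to 510.9 CPM in SNI-NP libraries, with 2 of 8 (*Snap25* and *Slc17a6*) lower. Of 6 astrocyte markers 1 was lower (*Slc1a2*, log2 fold change -1.08, unadjusted p = 0.0274 by edgeR), and of 8 oligodendrocyte markers 0 were. Of all genes tested, 5.94% were lower at an unadjusted p under 0.05. Erythroid markers ranged from 966.0 to 2355.6 CPM in sham and from 2111.2 to 5080.4 CPM in SNI-NP libraries, with 4 of 5 tested higher. Of all genes tested, 4.91% were higher at that threshold. The B cell receptor genes *Cd79a* (1.5001 to 3.49 CPM in sham and 4.94 to 7.53 CPM in SNI-NP libraries) and *Cd79b* (1.35 to 2.27 and 3.79 to 5.05 CPM) were low. They did not overlap between the groups, as for 10.4% of all genes tested with SNI-NP higher, and were higher at an unadjusted p under 0.05. Not every tested gene of the B cell list was higher at that threshold. Skeletal muscle markers ranged from 11.0 to 65.9 CPM in sham and from 9.82 to 394.0 CPM in SNI-NP libraries, with 1 of 4 tested (*Myh4*) higher. A sum of 4 Schwann cell genes was 18031 to 21578 CPM in sham and 20542 to 27150 CPM in SNI-NP libraries, and the groups overlapped. Of these genes, *Prx* (4030 to 4637 CPM in sham and 4667 to 6416 CPM in SNI-NP libraries) did not overlap, as for 10.4% of all genes tested. It was higher at an unadjusted p of 0.0490 by edgeR, and *Pmp22*, *Ncmap* and *Egr2* were not. No list had a marker at 0 in all libraries. In bulk tissue, fewer cells of a type and less RNA per cell cannot be told apart.

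Across libraries, some members and marker sums ranked alike. *Trib3* was highest in SNI-NP replicates 2 and 3 and sham replicate 3, which were also the libraries with the highest ganglion marker sums, and its lowest libraries, sham replicate 1 and SNI-NP replicate 1, had the lowest sums. *Asns* was also lowest in SNI-NP replicate 1. *Chac1* was highest in sham replicates 3 and 1 and lowest in sham replicate 2. The neuronal marker sum was likewise highest in sham replicates 1 (864.0 CPM) and 3 (724.2 CPM) and lowest in sham replicate 2 (413.4 CPM). The astrocyte sum (1828.3, 1342.6 and 748.2 CPM) and the motor neuron sum (67.5, 51.7 and 19.3 CPM) ranked these libraries in the same order, so neurons were not singled out. *Psat1* was highest in replicate 1 of both groups, as was the sum of the 8 oligodendrocyte markers. That sum was 41166 CPM in sham and 40440 CPM in SNI-NP replicate 1, against 30315 to 34131 CPM in the other libraries. Within each group the neuron, astrocyte and motor neuron sums were also highest in replicate 1. In SNI-NP replicate 1 they were 510.9, 1266.1 and 34.3 CPM, so oligodendrocytes were not singled out. These pairs were chosen after the values were seen, and the part of cell makeup in the values of the members was not tested. With the ganglion marker level as a covariate, the log2 fold change of *Trib3* was 0.98 (SE 0.43, unadjusted p = 0.0577, adjusted p = 0.338 by edgeR), and 0 of the 10 genes were called.

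**Figure D4:**
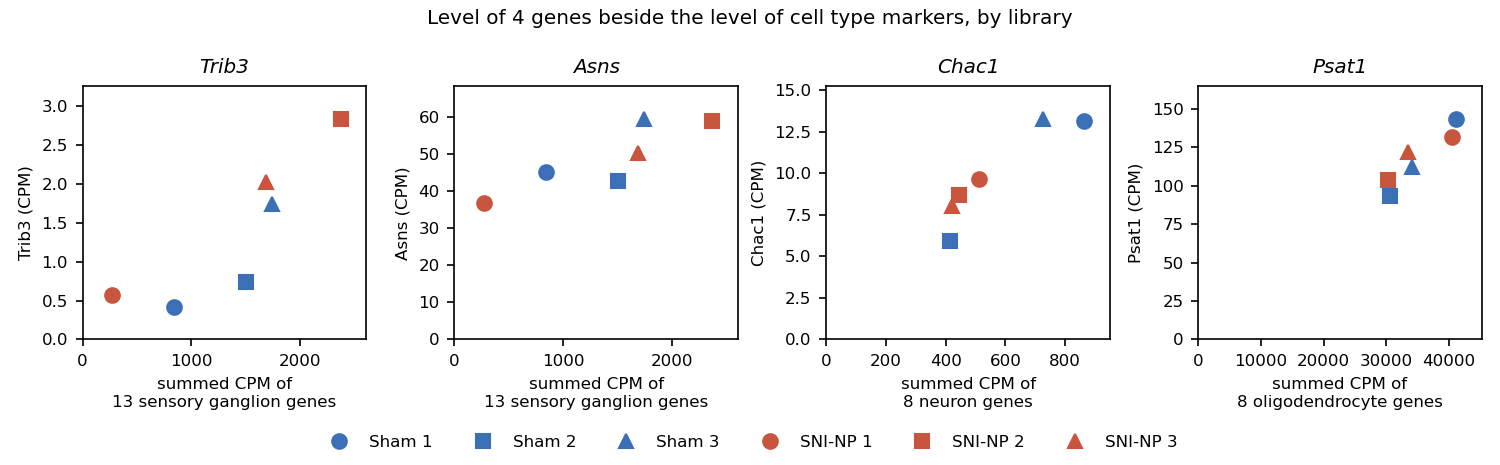
CPM of *Trib3*, *Asns*, *Chac1* and *Psat1* (vertical axes) against the summed CPM of 13 sensory ganglion, 8 neuron or 8 oligodendrocyte genes (horizontal axes), with each of the 6 libraries as a point coloured by group. *Trib3* lies lowest in the libraries with ganglion marker sums of 268.8 and 842.5 CPM, and the points of sham and SNI-NP libraries are mixed.

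Around the 10 members, 118 further genes of the same responses were listed, of which 114 were tested. At an unadjusted p under 0.05, 5 were higher and 11 lower in SNI-NP rats, 14.0% against 10.8% of all genes, and 0 had an adjusted p under 0.05 by edgeR, or 1 (*Atf3*) without SNI-NP replicate 1 or with the ganglion marker level as a covariate. DESeq2 gave an adjusted p under 0.05 for 2, *Atf3* and *Ero1b*. The median log2 fold change was 0.04 over the 114 genes and 0.01 over all genes. The groups did not overlap for 17 of the 114 with SNI-NP higher, where 10.4% of all genes tested did so. With SNI-NP lower they did not overlap for 12, against 8.15% of all genes. Single libraries moved these counts. Of the fits that left out 1 library, those without sham replicate 1, sham replicate 3 and SNI-NP replicate 3 gave 2, 3 and 2 higher genes and that without sham replicate 2 gave 9, and the lower genes numbered 6, 4, 6 and 7 without sham replicates 1 and 3 and SNI-NP replicates 2 and 3. With offsets for gene length the split was 8 higher and 6 lower, as over all genes, where it turned from 708 higher and 857 lower to 1303 and 707. With these offsets *Eif2ak2* (unadjusted p = 0.0547), *Slc7a1* (0.339), *Vldlr* (0.0640), *Vegfa* (0.134) and *Hspa5* (0.0503), each described with its list, no longer passed in edgeR.

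Upstream of *Atf4*, of the 14 genes of the eIF2 kinases, eIF2, eIF2B and the eIF2 phosphatase, 2 were higher, 1 was lower and 11 were neither, with a median log2 fold change of 0.03. *Ppp1r15a* encodes GADD34, the stress-induced phosphatase subunit that ends the response. It was at 59.6, 65.7 and 61.8 CPM in sham and 85.1, 76.5 and 80.9 CPM in SNI-NP libraries. Every SNI-NP library exceeded every sham library, as for 10.4% of all genes tested. *Ppp1r15a* had a log2 fold change of 0.37 (SE 0.09, unadjusted p = 0.005, adjusted p = 0.348 by edgeR). It passed (an unadjusted p under 0.05) in 6 of 6 fits without 1 library. *Eif2b3*, an eIF2B subunit, was higher by 0.29 on the log2 scale and passed in 1 of 6 such fits. *Eif2ak2*, the double-stranded RNA sensor PKR, was lower (log2 fold change -1.03, SE 0.42), but its sham values of 13.6, 25.5 and 47.8 CPM spread widely, the SNI-NP values were 15.5, 10.8 and 16.2 CPM, and without sham replicate 3 the log2 fold change was -0.50. The most abundant gene of the list per length was the haem-regulated kinase *Eif2ak1*, with a mean of 41.1 FPKM and a log2 fold change of 0.09.

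Downstream of *Atf4*, 21 further genes of amino acid synthesis, folate metabolism and amino acid transport were tested, with 1 higher, 1 lower and a median log2 fold change of 0.09. The higher gene was the glutamine transporter *Slc1a5* (0.51, SE 0.18, unadjusted p = 0.0237 in edgeR) and the lower gene the arginine transporter *Slc7a1* (-0.37, SE 0.14, unadjusted p = 0.0298 in edgeR). Each passed in 2 of 6 fits without 1 library, and with length offsets *Slc7a1* was at -0.16 (unadjusted p = 0.339 by edgeR). *Slc3a2*, the shared subunit of several amino acid transporters and the most abundant of the list at 120.7 FPKM, had a log2 fold change of 0.15 (SE 0.10). *Aldh18a1* had a value of 3.09 with an SE of 1.43. Its counts were 0, 88.32 and 5.62 in the sham libraries and 15.27, 466.98 and 326.57 in the SNI-NP libraries. With this spread and overlap the value is uncertain. The counts were not whole in 5 of the 6 libraries, which can happen when reads are divided between copies, but this was not tested.

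Of the 11 tested genes for regulators and secreted factors under ATF4, 1 was higher and 2 were lower, and the median log2 fold change was -0.02. The higher gene, *Atf3*, is a stress factor that also marks axotomised sensory neurons. It was at 12.9, 14.8 and 18.4 CPM in sham and 34.3, 40.2 and 38.6 CPM in SNI-NP libraries. The groups did not overlap, as for 10.4% of all genes tested with SNI-NP higher. *Atf3* had an adjusted p of 0.117 in edgeR and of 2.11e-08 in DESeq2. In edgeR the adjusted p of *Atf3* was 0.0206 without SNI-NP replicate 1 and 0.0257 with the ganglion covariate, and 0.0935 to 0.521 in the other edgeR and limma fits. *Vldlr*, a lipoprotein receptor, and *Vegfa*, the angiogenic growth factor, were lower, with log2 fold changes of -0.34 (SE 0.13) and -0.31 (SE 0.13), and passed in 2 and 1 of 6 fits without 1 library. *Nupr1*, a stress-induced chromatin protein and the most abundant of this list at 110.0 FPKM, had a log2 fold change of 0.16 (SE 0.24). *Gdf15* and *Fgf21* had too few counts to be tested. Among 13 genes for tRNA synthetases and tRNA export, *Eprs* was lower, at 132.7, 133.7 and 135.3 CPM in sham and 108.5, 93.2 and 113.4 CPM in SNI-NP libraries, and 12 were neither. Its log2 fold change was -0.35 (SE 0.10, unadjusted p = 0.0114 by edgeR), and it passed in 6 of 6 fits without 1 library. *Sars1*, the most abundant synthetase at 96.6 FPKM, had a value of 0.06 (SE 0.10).

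In the ER arm, 1 of 8 tested sensors and membrane-bound factors was higher and 1 lower, and both were proteases that cut ATF6 in turn. *Mbtps1* had a log2 fold change of 0.28 (SE 0.10) and *Mbtps2* of -0.79 (SE 0.33), and each passed in 2 of 6 fits without 1 library. *Creb3*, the most abundant of the list at 60.9 FPKM, had a value of 0.21 (SE 0.12).

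Of 21 ER chaperones and foldases, 0 were higher and 2 were lower, and the median log2 fold change was -0.07. *Hspa5* encodes BiP, the ER chaperone whose transcription is the standard readout of the unfolded protein response. It was at 379.6, 411.4 and 398.6 CPM in sham and 346.8, 324.8 and 326.2 CPM in SNI-NP libraries. All SNI-NP libraries lay below all sham libraries, as for 8.15% of all genes tested. *Hspa5* had a log2 fold change of -0.25 (SE 0.09, unadjusted p = 0.0291, adjusted p = 0.436 by edgeR). It passed in 3 of 6 fits without 1 library and in 10 of all 16 alternatives. *Ero1b*, an oxidase that drives disulphide formation, was at 15.2, 18.3 and 13.03 CPM in sham and 10.2, 8.88 and 8.57 CPM in SNI-NP libraries. The log2 fold change was -0.75 (SE 0.17, unadjusted p = 0.0031, adjusted p = 0.329 by edgeR), the adjusted p by DESeq2 was 0.0373, and it passed in 6 of 6 fits without 1 library. *Calr*, the calcium-binding chaperone calreticulin and the most abundant of the list at 345.4 FPKM, had a value of 0.05 (SE 0.11).

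Of 18 genes of ER-associated degradation and translocation, which is the pathway of *Herpud1*, *Edem3* was lower (-0.63, SE 0.20, passing in 4 of 6 fits without 1 library) and 17 were neither. EDEM3 trims mannose from misfolded glycoproteins. *Vcp*, the ATPase that pulls clients out of the membrane and the most abundant of the list at 145.9 FPKM, had a log2 fold change of 0.06 (SE 0.11). Among 8 mitochondrial chaperones and proteases, the partners *Hspd1* (-0.37, SE 0.11) and *Hspe1* (-0.55, SE 0.20), which form the folding chamber of the matrix, were lower and passed in 6 and 3 of 6 fits without 1 library. *Hspa9*, the most abundant of that list at 71.8 FPKM, had a value of -0.10 (SE 0.10).

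**Figure D5:**
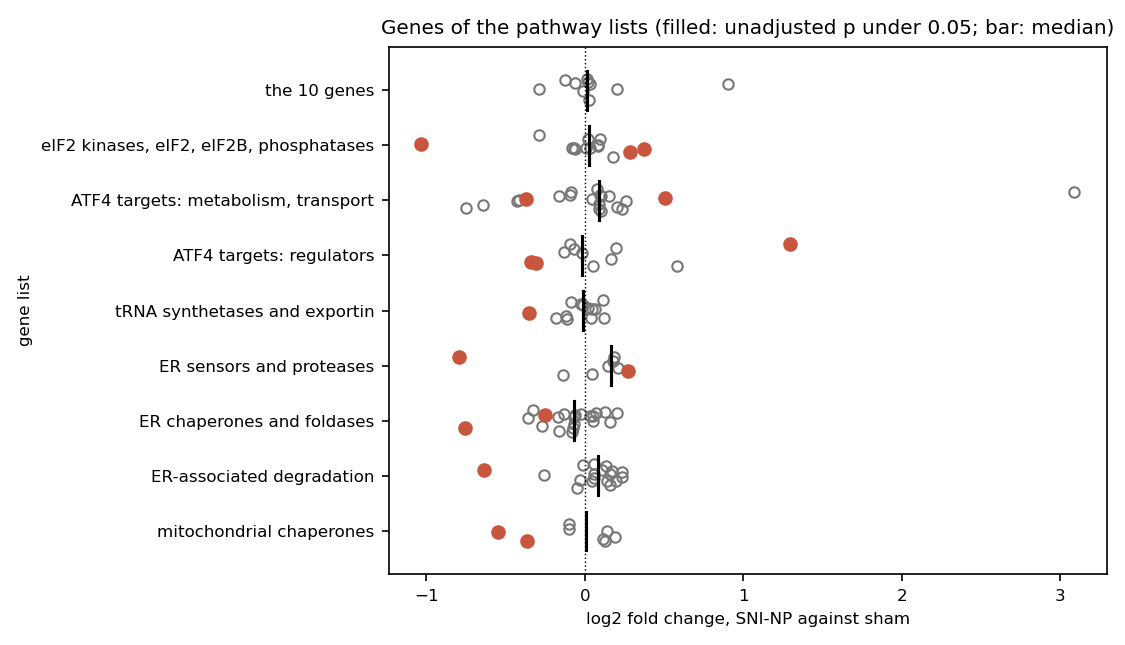
Log2 fold change (SNI-NP minus sham) of the tested genes of each list, with each gene as a point, filled where the unadjusted p is under 0.05 in edgeR, and the median of the list as a bar. The medians lie between -0.07 for the ER chaperones and 0.16 for the ER sensors, near the 0.01 of all genes.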

How the data were processed

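Spinal cord RNA-seq libraries of 3 sham and 3 SNI-NP rats were grouped by their labels. Reads were mapped by the authors to a rat genome named Rat6, and unique sequences were kept. The labels name FastQC, STAR and HTSeq without version, and the annotation release and the use of strand are not given in the sources used here. The authors deposited an estimated count per gene without normalization, and FPKM values scaled for gene length and depth.

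Estimated counts, all whole for the 10 members, were rounded. After filterByExpr and TMM scaling, the quasi-likelihood test of edgeR (version 4.0.16, R 4.3.3) compared the groups with no covariate, with Benjamini-Hochberg adjustment over 14426 of 22050 genes. SE is the log2 fold change divided by the root of the F statistic. The study's methods name DESeq2, which was run as an alternative (version 1.42.0), as were upper-quartile and RLE factors, no filter, a minimum of 10 counts in every library, gene length offsets, the replicate number as a block, FPKM with limma version 3.58.1 on log2(FPKM + 0.1), and each library left out. The tests were checked on simulated counts. Totals differed by 1.09 times, and 0 counts allowed up to 0.18 CPM, a limit that covers counting error only.

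Every member is named. Of each pathway list, genes with an unadjusted p under 0.05 (at most 4) and the gene with the highest FPKM are named, and any other gene was picked with its values in view. The members and the lists were chosen with earlier results of these data known. *Cth* was not analysed here, and 2 marker genes are not reported here. Promoters are from RefSeq GRCr8, and overlaps of genes are from the RefSeq table of the same build.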

Additional observations from a re-analysis of the deposited data

How the results depend on the processing

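No setting gave a member an adjusted p under 0.05, and under none of them was a member higher at an unadjusted p under 0.05. Members lower at that threshold numbered 0, and from 0 to 1 when 1 library was left out, the 1 being *Chac1* without sham replicate 2. *Ddit3*, *Chac1*, *Xbp1* and *Herpud1* kept their direction in the main fit and 16 alternatives and *Trib3* in 15, since it fails a minimum of 10 counts in every library. The log2 fold changes near 0 changed sign. That of *Asns* was 0.0019 with length offsets and 0.039 with the ganglion covariate, that of *Psat1* was -0.0057 with the covariate, and that of *Sdf2l1* was -0.0039 with length offsets and the replicate block, -0.029 from FPKM and -0.023 with the covariate. From FPKM, *Atf4* was at -0.015 and *Sesn2* at -0.018. Without 1 library, *Atf4* ranged from -0.050 to 0.047, *Asns* from -0.17 to 0.15, *Psat1* from -0.10 to 0.20, *Sesn2* from -0.053 to 0.053 and *Sdf2l1* from -0.11 to 0.094. Why the signs changed was not tested. The ganglion covariate was chosen after seeing the data.

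Of the 114 other genes, those lower at an unadjusted p under 0.05 numbered 11, and 7 with the replicate block, 6 with length offsets, 4 with both, and 4 to 11 without 1 library. Those higher numbered 5, and 8 with length offsets, 8 with the covariate, and 2 to 9 without 1 library. The cause was not tested. The labels number the replicates and do not say whether same-numbered samples were paired. The correlations of same-numbered deviations were 0.195, -0.139 and 0.0443, which did not show a pairing and cannot exclude one. The block therefore stands for a shared number only. With the block, 0 members were called, and 448 genes in all were higher and 871 lower at an unadjusted p under 0.05. Depth limits *Trib3*, whose lowest library held 7 counts. Over all genes, an adjusted p under 0.05 was reached by 0 in edgeR, 192 in DESeq2, 2 from FPKM, 209 with the covariate, 222 if SNI-NP replicate 1 was left out and 2 if sham replicate 2 was.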
